A study of Saccharomyces cerevisiae with 12 samples.

Results

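Methionine synthesis, the S-adenosylmethionine (SAM) cycle and transsulfuration were followed through 10 genes of budding yeast, out of 5574 genes named in the main table. They were chosen by name: MET2 (YNL277W), MET6 (YER091C), MET12 (YPL023C) and MET13 (YGL125W) for methionine synthesis, SAM1 (YLR180W), SAM2 (YDR502C) and SAH1 (YER043C) for the SAM cycle, and STR3 (YGL184C), CYS3 (YAL012W) and CYS4 (YGR155W) for transsulfuration. The choice was made with earlier results of these data known. Each of the 10 genes had 1 probe in each of the 3 deposited tables, so no spots were averaged for them. Of their 120 values on 12 arrays 111 were measured.

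The arrays were two-channel spotted arrays on which RNA of a deletion strain was set against wild-type (FY2) RNA. The 4 groups, of 3 arrays each, were snf2 (strain FY31) in the rich medium YPD, snf2 in minimal medium, swi1 (strain YPS1) in YPD, and swi1 in minimal medium. SNF2 encodes the ATPase and SWI1 another subunit of the chromatin-remodelling complex Snf/Swi, and the design asks which genes depend on either subunit in each medium. Each mutant is represented by 1 strain, and no source used here tells whether its arrays go back to separate cultures, so the p-values cover array-to-array spread only, which may be technical.

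Homoserine is acetylated by Met2 and then sulfhydrylated to homocysteine, which Met6 methylates to methionine with a methyl group from the folate reductase Met13. Methionine is turned into SAM by Sam1 or Sam2, and after methyl transfer Sah1 regenerates homocysteine. Cys4 and Cys3 carry sulfur from homocysteine through cystathionine to cysteine, and Str3 returns cystathionine to homocysteine. In yeast many genes of these routes are activated by Met4, with Cbf1, Met31 or Met32, when methionine and SAM are scarce.

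Values are log2 ratios of mutant over wild type, centred so that the median gene of each array is at 0. This direction was inferred and is not stated. Wild type is channel 2 in the labels and named before the mutant. SER3, a gene known to be repressed by Snf/Swi, then read higher on every array that measured it (1.34 to 3.87). Genes known to need Snf/Swi were mixed. PHO84 read -4.85 to -2.90 on the 6 rich arrays and -2.65 to -0.29 on the minimal arrays but for swi1 minimal replicate 1 (0.91), and SUC2 on replicates 2 and 3 read 0.43 to 0.81 on rich arrays, which goes against this direction, and -0.21 to -0.07 on minimal arrays. With the opposite reading every higher below becomes lower. The deleted genes did not settle it. SNF2 read 0.69 and 0.65 on rich and 0.79 and 1.00 on minimal arrays labelled snf2 (replicates 2 and 3). A deleted gene should read below 0, so these values go against the labels or against this direction. With the opposite reading they would lie below 0. On replicate 1 SNF2 read -0.68 and 0.43, and on arrays labelled swi1 it read -0.725 to 0.092. SWI1 on arrays labelled swi1 read -0.04 and 0.57 in rich medium and -0.83 and -0.46 in minimal medium, with -0.49 and 1.35 on replicate 1. Which part of each gene its probe covers is not stated.

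Replicates 2 and 3 shared 1 platform and entered limma (8 arrays, n = 2 per group), while replicate 1, on other platforms, stood outside the tests. The rich and the minimal arrays of replicate 1 lay on different platforms, so medium and platform cannot be told apart among them. Replicates 2 and 3 of a group correlated across genes at r = 0.77 to 0.83, and replicate 1 with them at r = 0.23 to 0.58. Missing values ranged from 3.19% to 40.0% of probes, the most on snf2 rich replicate 3. Precision is limited by how few arrays there are. Markers of alpha cells stood lower on arrays of both mutants: 3 of 3 tested fell in snf2 rich (median -1.66), 4 of 4 in swi1 rich (median -2.15), 4 of 4 in snf2 minimal (median -3.45) and 4 of 4 in swi1 minimal (median -2.95). Of markers of a cells, 1 of 2 rose and 0 fell in snf2 rich, 1 of 5 rose and 1 fell in swi1 rich, 0 of 5 rose and 1 fell in snf2 minimal, and 1 of 6 rose and 1 fell in swi1 minimal. The part of these markers in the results below was not tested.

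In rich medium, the genes for the last step to methionine and its methyl supply were far higher on arrays of both mutants, and in minimal medium MET6 was not called and MET13 was higher by less. MET6, methionine synthase, read 2.68 and 2.21 in snf2 rich on replicates 2 and 3 and 2.07 on replicate 1. In swi1 rich it read 2.76, 2.46 and 3.03 on the same replicates. The minimal arrays read -0.25, -0.23 and 0.14 in snf2 and -0.40, -0.05 and 0.25 in swi1, so all rich arrays lay above all minimal arrays.

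MET6 rose by 2.45 ± 0.15 (limma's standard error, n = 2 arrays) in snf2 rich, a ratio of 5.45, with adjusted p = 2.50e-05. It rose by 2.61 ± 0.14 in swi1 rich, a ratio of 6.09, with adjusted p = 3.80e-05. It ranked 4 and 7 from the top of 5369 and 5167 genes on swi1 rich replicates 2 and 3. On those of snf2 rich it ranked 21 and 32 from the top of 5250 and 3850 genes. On replicate 1 it ranked 36 from the top of 5346 genes in swi1 rich. In snf2 rich, where replicate 1 had the widest spread, it ranked 456 of 4585. In minimal medium it stood at -0.24 ± 0.14 in snf2 and -0.22 ± 0.15 in swi1 and did not pass (adjusted p = 0.252 and 0.297).

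MET13, the methylenetetrahydrofolate reductase that serves Met6, was also far higher in rich medium. It read 2.81, 2.65 and 3.31 on replicates 2, 3 and 1 of snf2 rich and 2.52, 2.33 and 1.03 on those of swi1 rich. In minimal medium it read 0.39, 0.40 and 0.41 in snf2 and 0.57, 0.74 and 0.20 in swi1. All 12 arrays were above 0, with swi1 rich replicate 1 the lowest of the rich arrays. On snf2 rich replicate 1, the array of widest spread, MET13 ranked 188 from the top of 4585 genes. On replicates 2 and 3 of that group it ranked 20 and 17 from the top of 5250 and 3850 genes.

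MET13 rose by 2.73 ± 0.10 in snf2 rich (adjusted p = 4.38e-06) and by 2.42 ± 0.10 in swi1 rich (adjusted p = 1.61e-05), ratios of 6.62 and 5.37. It also rose in minimal medium, by 0.39 ± 0.10 in snf2 (adjusted p = 0.021) and by 0.65 ± 0.10 in swi1 (adjusted p = 0.00359). The snf2 minimal call was lost without replicate 2 or 3 (adjusted p = 0.126 and 0.139) and with arrays scaled to a common spread (adjusted p = 0.0576). Both minimal calls were lost with all 12 arrays (adjusted p = 0.693 and 0.526).

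MET12, the gene of the other methylenetetrahydrofolate reductase, was not called in any group where it could be tested. In snf2 rich it could not be tested on the shared platform, and with all 12 arrays it stood at 0.03 ± 0.25 there (adjusted p = 0.935). MET12 read 0.16 on snf2 rich replicate 2 and -0.36 on replicate 1, and was missing on replicate 3. In swi1 rich it read 0.31, 0.25 and -0.04 on replicates 2, 3 and 1. The minimal arrays read -0.34, -0.25 and 0.56 in snf2 and 0.65, 0.12 and 0.61 in swi1. Fits gave 0.28 ± 0.14 in swi1 rich, -0.29 ± 0.14 in snf2 minimal and 0.39 ± 0.14 in swi1 minimal (adjusted p = 0.149, 0.161 and 0.0837). The swi1 minimal value passed without replicate 3 (adjusted p = 0.0363). The log2 ratio of MET13 lay above that of MET12 by 1.07 to 3.68 on the 5 rich arrays that measured both, which is a description of 2 genes within each array.

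**Figure D1:**
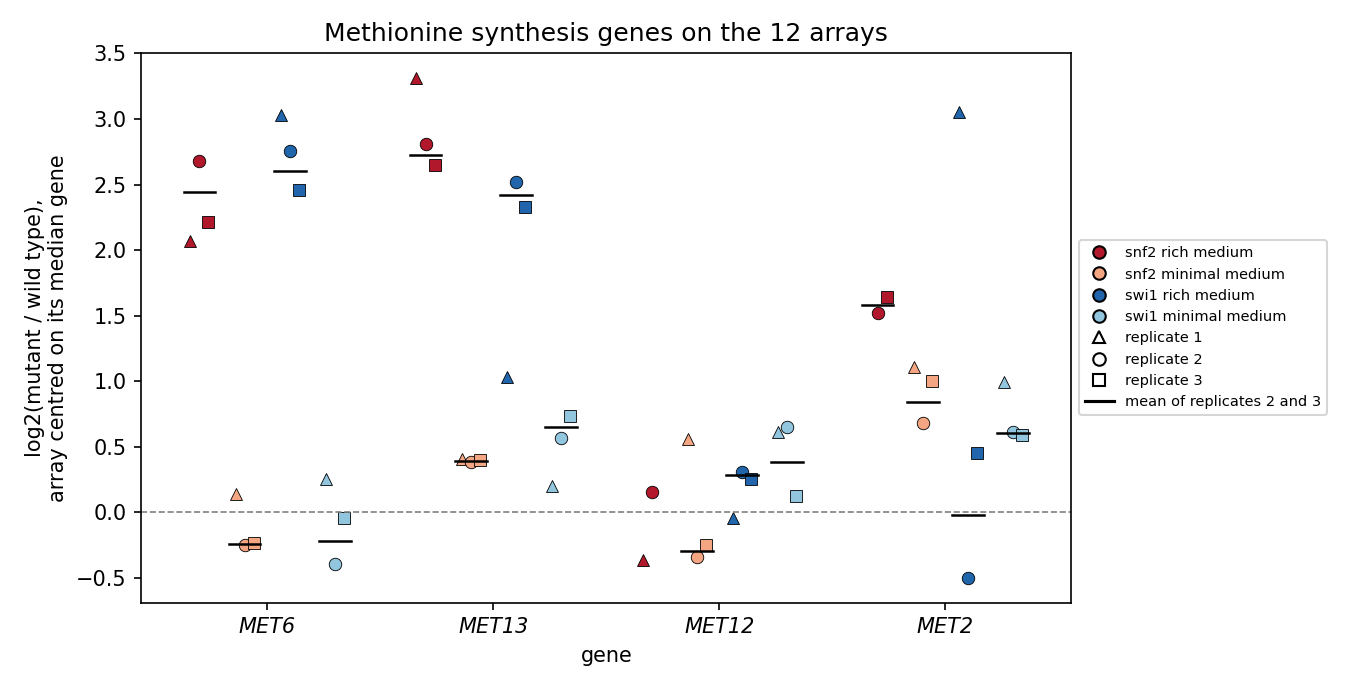
Log2 ratio of mutant over wild type (vertical axis) for MET6, MET13, MET12 and MET2, with 1 point per array, colours for mutant and medium, shapes for replicates and a bar at the mean of replicates 2 and 3. MET6 and MET13 lie between 1.03 and 3.31 on the rich arrays and between -0.40 and 0.74 on the minimal arrays, MET12 stays between -0.36 and 0.65, and MET2 on swi1 rich spreads from -0.50 to 3.06.

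MET2, homoserine O-acetyltransferase, was higher in snf2 rich and differed in sign between arrays of swi1 rich. It read 1.52 and 1.64 on snf2 rich replicates 2 and 3 and was missing on replicate 1. In swi1 rich it read -0.50, 0.45 and 3.06 on replicates 2, 3 and 1, with replicate 1 far above the others. In minimal medium it read 0.68, 1.00 and 1.10 in snf2 and 0.61, 0.59 and 0.99 in swi1, above 0 on all 6 arrays.

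MET2 rose by 1.58 ± 0.20 in snf2 rich (adjusted p = 0.000879) and by 0.84 ± 0.20 in snf2 minimal (adjusted p = 0.0195). The snf2 minimal call was lost without replicate 2 or 3 (adjusted p = 0.0784 and 0.188) and with all 12 arrays (adjusted p = 0.153). It stood at -0.02 ± 0.20 in swi1 rich (adjusted p = 0.936) and at 0.60 ± 0.20 in swi1 minimal (adjusted p = 0.0643). The swi1 minimal value passed with the replicate block (adjusted p = 0.0486), and with scaled arrays (adjusted p = 0.033). With all 12 arrays the swi1 rich value was 1.17 (adjusted p = 0.207).

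The SAM synthetase genes fell in minimal medium and were not called higher in rich medium. SAM1 read -0.52, -0.42 and 0.18 on replicates 2, 3 and 1 of snf2 rich and -0.20, -0.48 and 0.28 on those of swi1 rich. On minimal arrays it read -1.14, -1.32 and -0.62 in snf2 and -1.16, -0.97 and -0.40 in swi1, below 0 on all 6. Replicate 1 was the highest of its group in all 4 groups.

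SAM1 fell by 1.23 ± 0.11 in snf2 minimal (adjusted p = 0.000265) and by 1.07 ± 0.11 in swi1 minimal (adjusted p = 0.000599), ratios of 0.425 and 0.478. It also fell by 0.47 ± 0.11 in snf2 rich (adjusted p = 0.0119) and by 0.34 ± 0.11 in swi1 rich (adjusted p = 0.0375). The snf2 rich call was lost without replicate 2 or 3 (adjusted p = 0.0967 and 0.0623) and with all 12 arrays, where the value was -0.08 (adjusted p = 0.759). The swi1 rich call was lost without replicate 3 (adjusted p = 0.356), without centring (adjusted p = 0.0771), with scaled arrays (adjusted p = 0.0608) and with the replicate block (adjusted p = 0.0569), and turned to 0.03 with all 12 arrays (adjusted p = 0.945).

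SAM2, the paralogous SAM synthetase gene, read 0.11, -0.11 and 1.25 on replicates 2, 3 and 1 of snf2 rich and 0.17, 0.30 and 0.95 on those of swi1 rich. Its minimal arrays read -0.78, -0.57 and -0.39 in snf2 and -0.80, -0.56 and -0.14 in swi1. In both mutants every rich array lay above every minimal array. SAM2 fell by 0.68 ± 0.11 on both kinds of minimal array (adjusted p = 0.0042 for snf2 and 0.00502 for swi1). Those calls were lost without snf2 minimal replicate 2 (adjusted p = 0.0602), without swi1 minimal replicate 2 (adjusted p = 0.0654) and with all 12 arrays (adjusted p = 0.466 and 0.541).

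In rich medium SAM2 stood at -0.0035 ± 0.11 in snf2 and 0.23 ± 0.11 in swi1 and did not pass (adjusted p = 0.982 and 0.127); the swi1 value passed without centring (adjusted p = 0.0461). The log2 ratio of SAM2 exceeded that of SAM1 on 12 of 12 arrays, by 0.23 to 1.07 with a median of 0.39. The enzymes are close relatives, and no source used here says whether their probes separate the transcripts, so the 2 genes may share signal.

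SAH1, S-adenosylhomocysteine hydrolase, was below 0 on all 12 arrays. It read -0.44, -0.35 and -0.93 on replicates 2, 3 and 1 of snf2 rich and -0.58, -0.35 and -0.08 on those of swi1 rich. In minimal medium it read -0.51, -0.63 and -0.26 in snf2 and -0.20, -0.38 and -0.34 in swi1. The ranges of the media overlapped in both mutants.

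SAH1 fell by 0.39 ± 0.10 in snf2 rich (adjusted p = 0.0187), by 0.47 ± 0.10 in swi1 rich (adjusted p = 0.00915) and by 0.57 ± 0.10 in snf2 minimal (adjusted p = 0.00536). It stood at -0.29 ± 0.10 in swi1 minimal and did not pass (adjusted p = 0.0646). The snf2 rich call was lost without replicate 2 or 3 (adjusted p = 0.132 and 0.0831), without centring (adjusted p = 0.0661) and with all 12 arrays (adjusted p = 0.0797). The swi1 rich call was lost without replicate 2 (adjusted p = 0.105), the snf2 minimal call without replicate 3 (adjusted p = 0.0714), and both with all 12 arrays (adjusted p = 0.376 and 0.201).

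**Figure D2:**
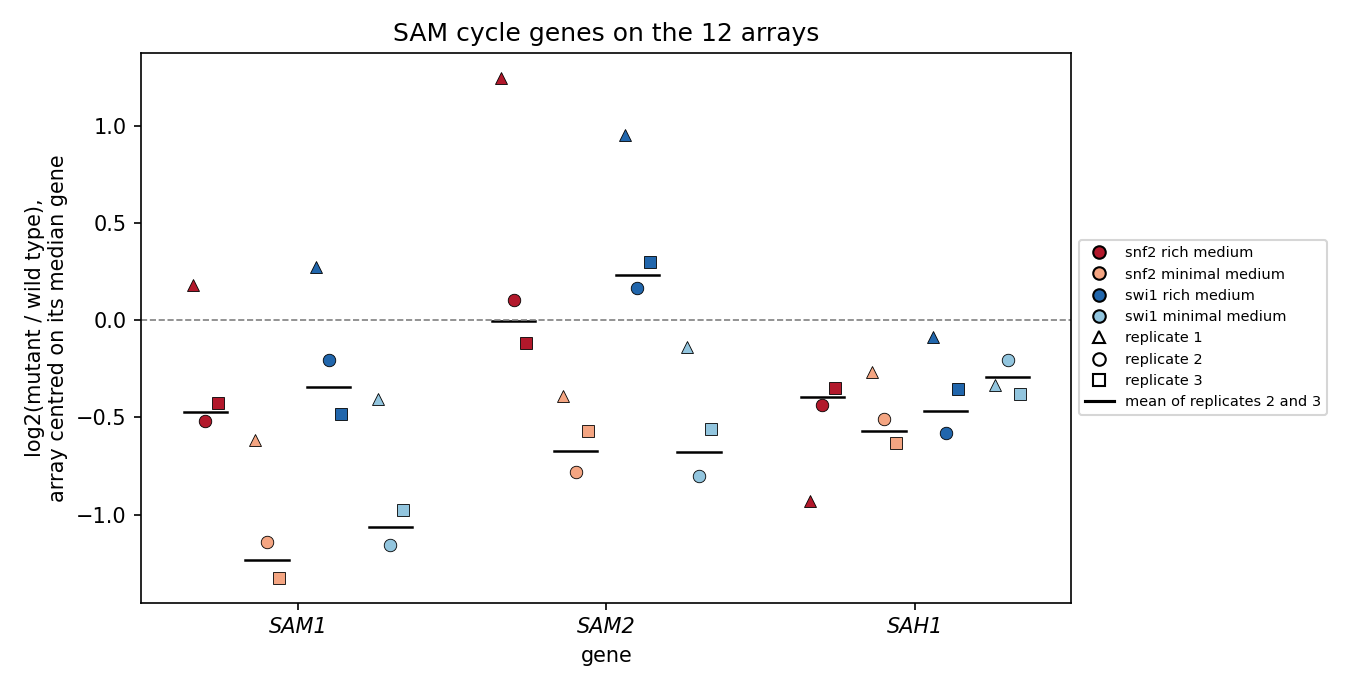
Log2 ratio of mutant over wild type (vertical axis) for SAM1, SAM2 and SAH1, with 1 point per array, colours for mutant and medium, shapes for replicates and a bar at the mean of replicates 2 and 3. SAM1 on the minimal arrays lies between -1.32 and -0.40, SAM2 on the minimal arrays between -0.80 and -0.14, and SAH1 lies below 0 on all 12 arrays.

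Of the transsulfuration genes, STR3 was higher in swi1 rich, CYS4 was lower in both rich groups, and CYS3 could not be tested in rich medium. STR3, cystathionine beta-lyase, read 2.44, 1.81 and 5.18 on replicates 2, 3 and 1 of swi1 rich and was missing on all 3 snf2 rich arrays. The minimal arrays read 0.29, 0.48 and -0.23 in snf2 and -0.05, 0.47 and 0.20 in swi1, well under the rich arrays of swi1. STR3 rose by 2.13 ± 0.19 in swi1 rich, a ratio of 4.37, with adjusted p = 0.000565.

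STR3 ranked 8 and 25 from the top on swi1 rich replicates 2 and 3. In minimal medium STR3 stood at 0.38 ± 0.19 in snf2 and 0.21 ± 0.19 in swi1 and did not pass (adjusted p = 0.177 and 0.458). Its swi1 rich value with all 12 arrays was 3.16 (adjusted p = 0.013), raised by replicate 1.

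CYS4, cystathionine beta-synthase, read -0.89, -1.19 and -1.66 on replicates 2, 3 and 1 of snf2 rich and -1.003, -0.65 and -0.33 on those of swi1 rich. In minimal medium it lay near 0, at -0.06, 0.06 and -0.05 in snf2 and -0.05, 0.09 and 0.09 in swi1. No rich array overlapped a minimal array.

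CYS4 fell by 1.04 ± 0.12 in snf2 rich (adjusted p = 0.000591) and by 0.83 ± 0.12 in swi1 rich (adjusted p = 0.00208), ratios of 0.486 and 0.563. Its minimal values, -0.003 ± 0.12 in snf2 and 0.02 ± 0.12 in swi1, did not pass (adjusted p = 0.99 and 0.935). The swi1 rich call was lost with all 12 arrays (adjusted p = 0.0918).

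CYS3, cystathionine gamma-lyase, was measured on 8 of 12 arrays and could be tested on the shared platform only in snf2 minimal. It read 1.70 on replicate 1 of snf2 rich, ranking 602 from the top of 4585 genes, and was missing on the other 2 arrays. In swi1 rich it read 0.58 on replicate 3 and 1.43 on replicate 1. Its minimal arrays read 0.13, 0.27 and 1.48 on replicates 2, 3 and 1 of snf2, and 0.002 and 1.37 on replicates 2 and 1 of swi1. Replicate 1 was the highest array in every group with another value. CYS3 stood at 0.20 ± 0.11 in snf2 minimal and did not pass (adjusted p = 0.248), and with all 12 arrays it stood at 1.21 ± 0.33 in swi1 rich and 0.74 ± 0.34 in swi1 minimal (adjusted p = 0.0797 and 0.266).

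**Figure D3:**
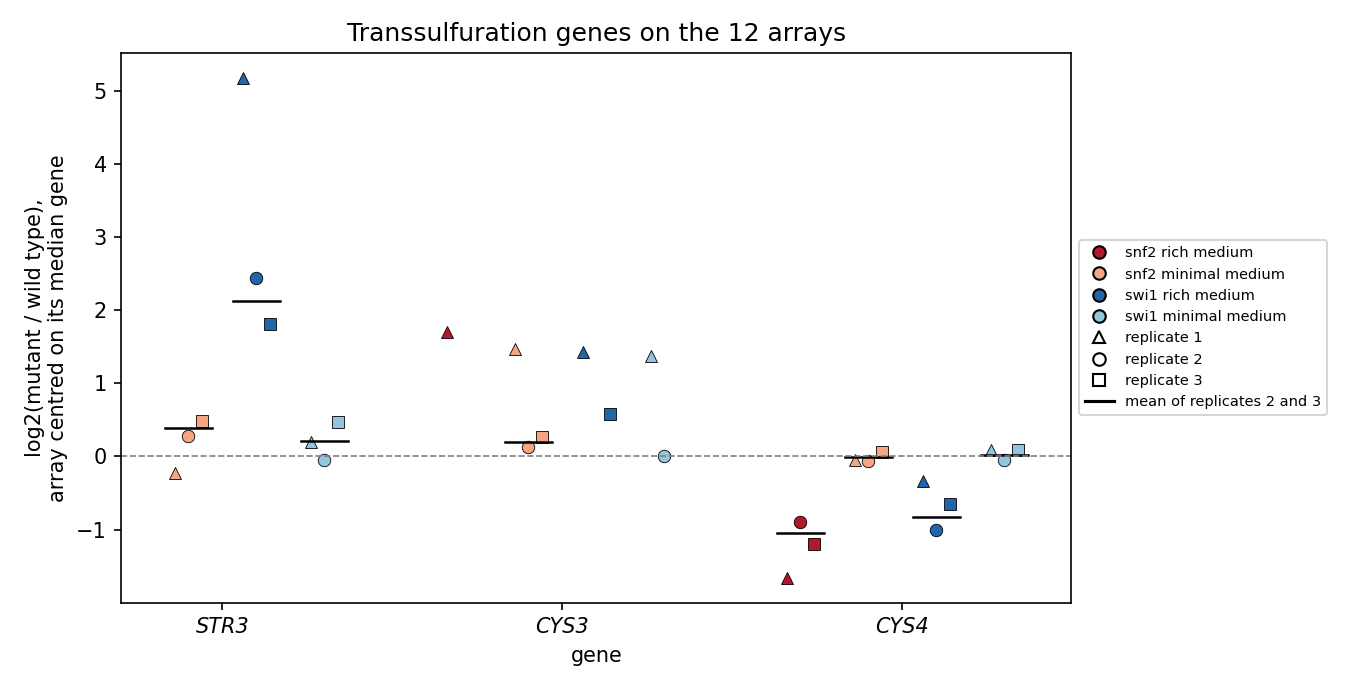
Log2 ratio of mutant over wild type (vertical axis) for STR3, CYS3 and CYS4, with 1 point per array, colours for mutant and medium, shapes for replicates and a bar at the mean where replicates 2 and 3 were both measured. STR3 on swi1 rich lies between 1.81 and 5.18, CYS4 lies between -1.66 and -0.33 on rich arrays and between -0.06 and 0.09 on minimal arrays, and CYS3 is high on replicate 1.

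Counted together, 3 of 7 tested members rose in snf2 rich (MET2, MET6, MET13), where 19.5% of all 3698 genes were called higher, and 3 fell (CYS4, SAH1, SAM1), where 22.2% were called lower. In swi1 rich 3 of 9 rose (MET6, MET13, STR3) against 19.1% of 5026 genes, and 3 fell (CYS4, SAH1, SAM1) against 21.7%. In snf2 minimal 2 of 10 rose (MET2, MET13) against 12.8% of 5307 genes, and 3 fell (SAM1, SAM2, SAH1) against 16.4%. In swi1 minimal 1 of 9 rose (MET13) against 13.7% of 5354 genes, and 2 fell (SAM1, SAM2) against 14.8%. Over all genes the split of calls rested on centring: 721 higher and 822 lower in snf2 rich became 998 and 630 without it, 958 and 1093 in swi1 rich became 1226 and 866, and 678 and 872 in snf2 minimal became 920 and 769.

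The median of the members tested was -0.0035 in snf2 rich, against 0.0145 for all genes tested, and 0.23 in swi1 rich, against -0.0027. It was -0.12 in snf2 minimal, against 0.006, and 0.017 in swi1 minimal, against 0.0025. Members were called in both directions in every group. Without replicate 2 or without replicate 3, 2 members were called in snf2 minimal in place of 5. With all 12 arrays 4 were called in snf2 rich, 3 in swi1 rich, 1 in snf2 minimal and 1 in swi1 minimal. Whether the groups share wild-type RNA is not stated.

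The medium dependence was tested as the difference of the mutant effect between rich and minimal medium, a difference of 2 ratios in which wild-type RNA of each medium is also involved. In snf2 the effect on MET6 was 2.69 ± 0.21 higher in rich than in minimal medium (adjusted p = 0.000304) and that on MET13 was 2.33 ± 0.14 higher (adjusted p = 0.000133). In swi1 these differences were 2.83 ± 0.20 (adjusted p = 0.000379) and 1.77 ± 0.14 (adjusted p = 0.000505). With all 12 arrays the swi1 difference for MET13 missed the threshold (adjusted p = 0.0584).

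SAM1 differed by 0.76 ± 0.16 in snf2 (adjusted p = 0.033) and by 0.72 ± 0.15 in swi1 (adjusted p = 0.0379), and SAM2 by 0.91 ± 0.15 in swi1 (adjusted p = 0.018). In snf2 SAM2 differed by 0.67 ± 0.16 and did not pass (adjusted p = 0.057), though it did without centring (adjusted p = 0.0425) and with scaled arrays (adjusted p = 0.0345). STR3 differed by 1.92 ± 0.26 in swi1 (adjusted p = 0.0116). CYS4 ran the other way, by -1.04 ± 0.17 in snf2 (adjusted p = 0.0152) and -0.84 ± 0.17 in swi1 (adjusted p = 0.0336).

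A difference above 0 can leave the mutant below wild type in rich medium, as for SAM1. In all, the mutant effect was called higher in rich than in minimal medium for 3 of 7 members in snf2, against 3.71% of 3559 genes. It was called lower for 1, against 1.29%. In swi1 it was called higher for 5 of 9, against 4.19% of 4890 genes, and lower for 1, against 2.07%. These shares lie above the background. The members were chosen with earlier results of these data known, so this excess is no independent result about them. The counts also fell when 1 array was left out. In snf2 the 4 calls became 3 without rich replicate 2, and 2 without rich replicate 3 or either minimal array. In swi1 the 6 calls became 4 and 5 without rich replicates 2 and 3, and 2 and 3 without minimal replicates 2 and 3. All 12 arrays together, where replicate 1 mixes medium with platform, gave 3 and 1 calls in snf2 and swi1. The mutant effect on alpha-cell markers also differed by medium. It was called higher in rich than in minimal medium for 3 of 3 in snf2 (median 1.56) and 2 of 4 in swi1 (median 0.81). The markers tested were still called lower than wild type in rich medium. Their part in these differences was not tested.

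The smaller differences carried this loss. That of SAM1 in snf2 missed the threshold without any 1 of the 4 arrays concerned (adjusted p from 0.0713 to 0.145), and so did that of SAM1 in swi1 (adjusted p from 0.0524 to 0.12). CYS4 in snf2 missed it without snf2 rich replicate 3 or either minimal array (adjusted p from 0.0672 to 0.0886), and in swi1 without swi1 rich replicate 2 or either minimal array (adjusted p from 0.0759 to 0.174). SAM2 in swi1 missed it without swi1 rich replicate 3 or either minimal array (adjusted p from 0.0508 to 0.0806), and STR3 without swi1 minimal replicate 2 (adjusted p = 0.0544). With the replicate block the differences of SAM1 in snf2 (adjusted p = 0.0609) and of SAM1 and CYS4 in swi1 (adjusted p = 0.065 and 0.0566) missed the threshold. The fit to all 12 arrays also lost SAM1 in snf2 (adjusted p = 0.0543) and SAM1, CYS4, SAM2 and STR3 in swi1 (adjusted p = 0.0884, 0.172, 0.095 and 0.0884). In swi1 the difference of MET2 stood at -0.62 ± 0.29 and did not pass (adjusted p = 0.22), but did without swi1 rich replicate 3 (-1.10, adjusted p = 0.0295).

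**Figure D4:**
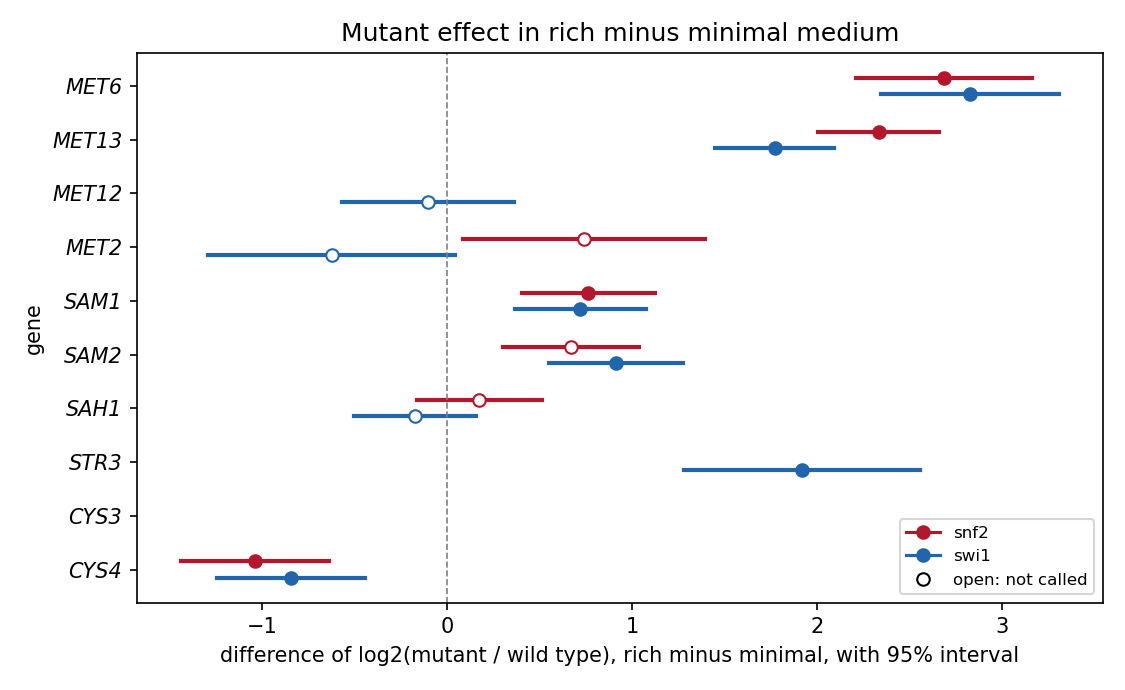
Difference of the log2 mutant over wild-type ratio, rich minus minimal medium (horizontal axis), for each member tested in snf2 and swi1, with points at limma's estimate, lines for 95% intervals not adjusted for the number of genes, and open points where the test was not passed. MET6 and MET13 lie between 1.77 and 2.83, SAM1, SAM2 and STR3 to the right of 0, and CYS4 at -1.04 and -0.84.

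The 2 mutants were set against each other within each medium, on 7 members in rich and 9 in minimal medium, and limma called 0 of them in either. Over all genes it called 0.0294% of 3397 genes in rich medium and 0% of 5123 genes in minimal medium. At an unadjusted p under 0.05, 1 member passed in each medium, against 6.65% and 5.47% of all genes. In rich medium this was MET2, with snf2 minus swi1 at 1.60 (95% interval 0.95 to 2.26, adjusted p = 0.228). Without swi1 rich replicate 2 or 3 the MET2 difference was 1.13 or 2.08, as those arrays read -0.50 and 0.45. On swi1 rich replicate 1, outside the test, MET2 read 3.06, above the snf2 rich values of 1.52 and 1.64. With all 12 arrays its difference was 1.11 (adjusted p = 0.372). In minimal medium it was MET12, at -0.68 (95% interval -1.14 to -0.21, adjusted p = 0.838).

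For MET6 the difference between mutants was -0.16 in rich medium (95% interval -0.64 to 0.32) and -0.02 in minimal medium (-0.50 to 0.46). For MET13 it was 0.30 (-0.03 to 0.63) and -0.26 (-0.58 to 0.06). SAM1 gave -0.13 (-0.49 to 0.24) and -0.17 (-0.52 to 0.18), and CYS4 gave -0.21 (-0.62 to 0.19) and -0.02 (-0.42 to 0.38). Missing the threshold does not show that the mutants act alike, and these intervals leave room for differences of about the size of the SAM1 effect in rich medium.

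**Figure D5:**
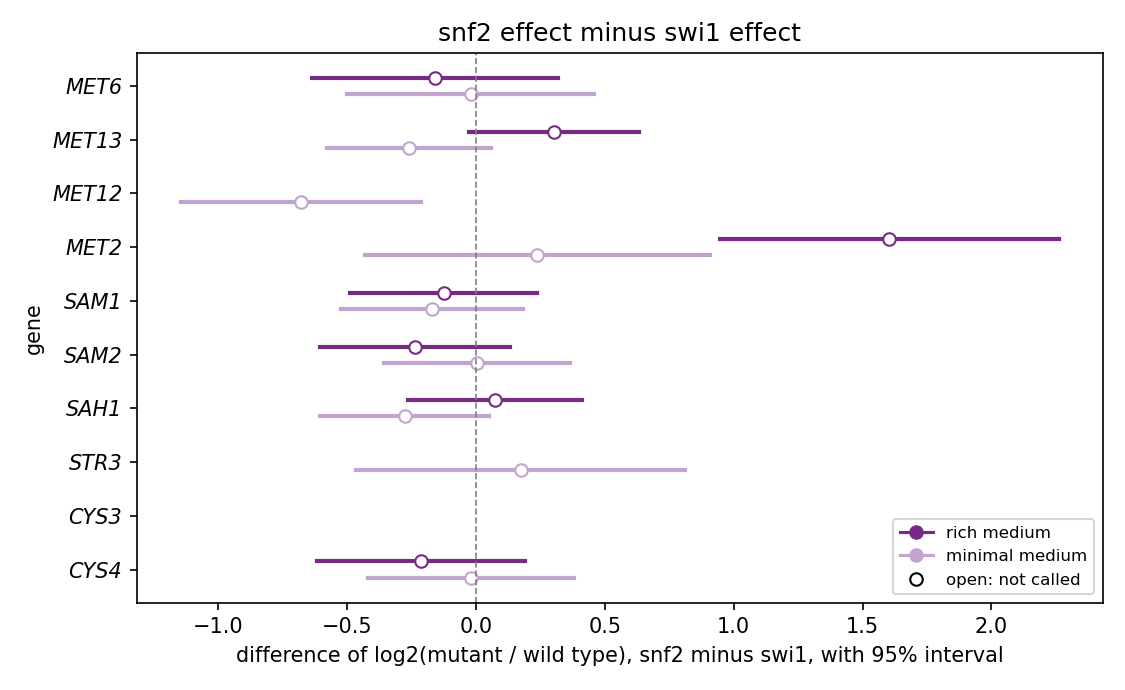
Difference of the log2 mutant over wild-type ratio, snf2 minus swi1 (horizontal axis), for each member tested in rich and minimal medium, with points at limma's estimate and lines for 95% intervals not adjusted for the number of genes. All points are open because none passed the test, and MET2 in rich medium lies farthest from 0, at 1.60.

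Neighbouring steps of sulfur metabolism were counted from lists drawn up with earlier results known. Each count below has to be read beside the share of all genes called. On rich arrays of snf2 that share was 19.5% for higher and 22.2% for lower, and for swi1 it was 19.1% and 21.7%. On minimal arrays it was 12.8% and 16.4% for snf2, and 13.7% and 14.8% for swi1. Whether any list exceeds these shares was not tested, and most lists hold few genes. In sulfate uptake and assimilation, which supplies sulfide for homocysteine, 8 of 10 tested genes rose and 0 fell in snf2 rich, and 8 of 11 rose and 0 fell in swi1 rich, with medians of 1.73 and 1.43. MET17, which makes homocysteine from the product of Met2, had the largest change, at 3.79 ± 0.09 and 3.77 ± 0.08. In minimal medium 1 of 11 rose and 1 fell in snf2, and 1 of 9 rose and 1 fell in swi1. The gene that rose was MET17, at 0.69 ± 0.08 and 0.95 ± 0.08, and the one that fell was SUL1, a sulfate permease, at -2.36 ± 0.18 and -1.94 ± 0.18.

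Among the Met4 regulators, 1 of 3 tested genes rose in snf2 rich, which was MET30, the F-box protein that restrains Met4, at 0.53 ± 0.11. In swi1 rich 3 of 6 rose and 2 fell, with the Met4 cofactor gene MET28 at 1.72 ± 0.30 (adjusted p = 0.00598). The binding partners split there: MET32 rose by 0.95 ± 0.21, while MET31 fell by 0.55 ± 0.10 and CBF1 fell by 0.49 ± 0.11. MET4 itself stood at 0.06 ± 0.10 and 0.18 ± 0.09 in snf2 and swi1 rich and did not pass (adjusted p = 0.648 and 0.162). MET28, MET31 and CBF1 could not be tested in snf2 rich. In minimal medium 2 of 6 rose in snf2 (MET30 and MET4) and 1 of 6 in swi1 (MET30), and 0 fell.

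Of the transporters of methionine and SAM, 2 of 3 rose on the snf2 rich arrays, as did 3 of 4 on those of swi1, with 0 lower. The largest changes were those of MUP1, the high-affinity methionine permease, at 0.58 ± 0.13 in snf2 rich and MMP1, the S-methylmethionine permease, at 2.10 ± 0.10 in swi1 rich. MMP1 could not be tested in snf2 rich. In minimal medium 1 of 4 rose in each mutant (MMP1, at 1.37 ± 0.10 and 1.69 ± 0.10) and 1 fell (MUP3).

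Genes that use SAM or salvage methionine went both ways: 4 of 11 rose and 3 fell in snf2 rich, and 2 of 12 rose and 4 fell in swi1 rich. CHO2, a methyltransferase of phosphatidylcholine synthesis and so a consumer of SAM, had the largest change, at -1.50 ± 0.15 and -1.19 ± 0.15. SPE2, SAM decarboxylase of polyamine synthesis, also fell, by 0.50 ± 0.10 and 0.81 ± 0.10. OPI3, of the same list, went the other way in rich medium. It rose by 0.99 ± 0.23 in snf2 (adjusted p = 0.0117) and stood at 0.38 ± 0.23 in swi1, where it did not pass (adjusted p = 0.22). In minimal medium 2 of 13 rose and 3 fell in each mutant. OPI3 was among those that fell there, at -1.39 ± 0.23 in snf2 and -1.17 ± 0.23 in swi1. CHO2 fell there too, at -1.35 ± 0.15 and -1.06 ± 0.15.

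Of the folate one-carbon genes that feed Met13, 0 of 6 rose and 2 fell in snf2 rich, and 1 of 8 rose and 2 fell in swi1 rich. MIS1, the mitochondrial C1-tetrahydrofolate synthase, had the largest change, at -0.63 ± 0.17 and -0.79 ± 0.17. In minimal medium 0 of 8 rose and 4 fell in each mutant.

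Of the glutathione and other transsulfuration genes, 2 of 4 rose and 1 fell in snf2 rich, and 2 of 6 rose and 2 fell in swi1 rich. IRC7, a beta-lyase acting on sulfur amino acids, had the largest change, at -2.64 ± 0.17 and -2.13 ± 0.17. It also fell in minimal medium, to -1.93 ± 0.17 in snf2 and -1.97 ± 0.18 in swi1, where 2 of 6 rose in each mutant and 2 and 1 fell. In the homoserine branch that supplies Met2, 1 gene could be tested in rich medium, HOM6, at 0.22 ± 0.11 in snf2 and 0.09 ± 0.11 in swi1 (adjusted p = 0.139 and 0.522). In minimal medium HOM2, aspartate semialdehyde dehydrogenase, fell by 1.72 ± 0.16 in snf2 and by 0.93 ± 0.16 in swi1, as 1 of 2 tested in each.

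The genes whose values followed MET6 most closely over the 8 arrays, among 3200 others measured on all of them, were MET3, SPI1, CTP1, YHI9 and MUP3, with Pearson's r from 0.99 to 0.995. MET3, ATP sulfurylase, read 2.75 to 3.21 on the rich arrays and 0.0035 to 0.33 on the minimal arrays. SPI1 and CTP1 had the same order at another height, at -0.66 to -0.31 on rich arrays and -1.83 to -1.63 on minimal arrays. For SAM2 they were SUC2, ARO8, HIS4, ILV6 and MAL13, with r from 0.97 to 0.99. The 8 arrays fall into 2 media, so these r mostly describe the step between media. CYS3 was not measured on all 8 arrays and has no such list.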

How the data were processed

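Per the labels, array images were read with ScanAlyze. The authors deposited log2 ratios of the 2 channels, 1 value per probe and array, in 3 tables. Base 2 was read from the values of the table of 8 arrays, where 13.3% to 17.3% of values matched, at 3 decimals, log2 quotients of integers up to 20, where a shifted grid of such quotients matched 6.06% to 7.09%, and was taken over for replicate 1. Numerator, scaling, background correction and normalisation are not given in the sources used here. Medians of the deposited columns ran from -0.48 to -0.03.

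Probes were named through the platform gene tables and matched by gene ID to RefSeq's R64 annotation (6956 of 8832 probes of the main table, all matched; 5548 of 6400 and 5516 of 6384 in the others). Signs were turned, spots averaged per gene and arrays centred. The shift exceeded 0.1 on snf2 rich replicates 1, 2 and 3 (0.485, 0.11 and 0.11), swi1 rich replicate 3 (0.10) and swi1 minimal replicate 1 (0.14). limma 3.58.1 (R 4.3.3) fitted 1 mean per group, two-sided, in 8 comparisons, using the genes with values on both arrays of every group involved. Calls needed an adjusted p (Benjamini-Hochberg over all genes tested) under 0.05. The fit was tested on simulated data. All 10 members were named, with, from each list, the called gene of largest change in each rich group; other list genes were picked after their values were seen. Members and lists were chosen with earlier results of these data known. Replicate numbers were not taken to pair arrays.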

Additional observations from a re-analysis of the deposited data

Results flagged for a closer look

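The effect of a mutant differed between media, by limma's test of the difference itself (rich minus minimal, log2), for 10 results. In snf2 these were MET6 at 2.69, MET13 at 2.33, SAM1 at 0.76 and CYS4 at -1.04. In swi1 they were MET6 at 2.83, MET13 at 1.77, STR3 at 1.92, SAM2 at 0.91, SAM1 at 0.72 and CYS4 at -0.84. No group held more than 3 arrays, so single arrays were not screened as outliers.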

How the results depend on the processing

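Of 67 member results 30 were called, and 12 of these kept direction and call under every alternative run: MET6 in both rich groups and both medium differences, MET13 in both rich groups and the snf2 medium difference, SAM1 in both minimal groups, and MET2 and CYS4 in snf2 rich and STR3 in swi1 rich. With all 12 arrays (random block for platform) 1 member was called in snf2 minimal, 1 in swi1 minimal, 3 in swi1 rich and 1 for medium in swi1. That setting turned SAM2 in snf2 rich to 0.55, MET2 and SAM1 in swi1 rich to 1.17 and 0.031, SAH1 to -0.067 and 0.0062 for medium in snf2 and swi1, and snf2 minus swi1 to -0.23 for SAH1 in rich medium and to -0.081 and -0.028 for SAM2 and STR3 in minimal medium. Without centring CYS4 in snf2 minimal was 0.0635, SAM2 in snf2 rich 0.106 and MET2 in swi1 rich 0.0665, and with scaled arrays SAM2 in snf2 rich was 0.0034. Leaving out 1 array at a time gave 2 called members in snf2 minimal, 2 to 3 and 2 to 5 for medium in snf2 and swi1, and 0 to 1 between mutants in rich medium. Values that turned ranged from -0.0635 to 0.0575 (CYS4, snf2 minimal), -0.052 to 0.086 (CYS4, swi1 minimal), -0.051 to 0.47 (STR3, swi1 minimal), -0.11 to 0.11 (SAM2, snf2 rich), -0.50 to 0.45 (MET2, swi1 rich) and -0.37 to 0.16 (MET12, medium in swi1). Between mutants they ranged from -0.089 to 0.049 (CYS4), -0.19 to 0.16 (MET6), -0.12 to 0.13 (SAM2) and -0.087 to 0.44 (STR3) in minimal medium, and from -0.40 to 0.076 (MET6), -0.0395 to 0.18 (SAH1) and -0.27 to 0.014 (SAM1) in rich medium. The cause was not tested. Where 1 array was left out, the lone array was assumed to vary like the other groups.

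The same replicate numbers did not deviate together (r from -0.04 to 0.02 over 3207 genes). With the replicate block 5, 4, 6 and 5 members were called in snf2 minimal, swi1 minimal, snf2 rich and swi1 rich, and 3 and 4 for medium in snf2 and swi1. Over all genes, calls numbered 1550 in snf2 minimal but 771 and 704 without replicates 2 and 3 and 339 with all 12 arrays, and 1526 in swi1 minimal but 581, 720 and 341. They numbered 1543 in snf2 rich but 1020 and 842 without replicates 2 and 3 and 683 with all 12 arrays, and 2051 in swi1 rich but 1360, 1008 and 428. For medium they numbered 178 in snf2 but 79 and 108 without minimal replicates 2 and 3, and 306 in swi1 but 202 and 115 without those, 161 without rich replicate 3 and 103 with all 12 arrays. Between mutants they numbered 0 in minimal and 1 in rich medium, and reached 18 and 69 with 1 array left out. No source used here gives signal over background, so how far dim spots limit these values is unknown.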

Other observations

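Replicate 1, on the other platforms, stood apart for some members. SAM1 read higher there than the mean of replicates 2 and 3 by 0.65 in snf2 rich, 0.62 in swi1 rich, 0.62 in snf2 minimal and 0.66 in swi1 minimal. CYS3 read higher by 1.28 in snf2 minimal, and by 1.37 and 0.85 over the single other value in swi1 minimal and swi1 rich. SAM2 read higher by 1.25 and 0.72 in snf2 and swi1 rich. The widest gaps were those of MET2 and STR3 in swi1 rich, at 3.08 and 3.05. MET13 in swi1 rich went the other way, lower on replicate 1 (a difference of -1.39), as did STR3 in snf2 minimal (-0.62), CYS4 in snf2 rich (-0.62) and SAH1 in snf2 rich (-0.54). CYS4 in minimal medium differed by only -0.04 in snf2 and 0.07 in swi1.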
